A study of Mus musculus with 6 samples.

Results

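The cells described here were Lgr5-positive cells of the ileal crypt with few transcripts of mitosis genes. They were chosen from droplet single-cell RNA-seq counts of 6 libraries. A barcode was kept with at least 5000 unique molecular identifiers (UMIs, each standing for 1 captured transcript), at least 500 genes and no more than 20% of its UMIs in mitochondrial genes. A kept barcode entered the population when it held at least 1 Lgr5 UMI, when Mki67, Top2a, Ccnb1, Cdk1, Birc5 and Ube2c together made up less than 0.05% of its UMIs, and when the Paneth cell genes Defa21, Defa22, Defa24, Defa30, Gm14851, Mptx2 and Lyz1 together made up less than 10%. The rule selected 525 of 8422 kept barcodes. They are called Lgr5+ low-mitotic cells, and the 515 Lgr5-positive cells that passed the Paneth limit but reached the mitotic limit are called dividing Lgr5+ cells.

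The libraries came from small intestinal crypts of mouse ileum, dissociated to single cells and sorted for EpCAM, a surface protein of epithelial cells. Young adult mice matched for sex and age, on the C57BL/6J background, carried a floxed Fpr2 gene. The 3 Fpr2f/f libraries, labelled WT, carried the floxed alleles without Cre, and the 3 Fpr2VKO libraries carried them with Villin-Cre, which deletes the gene throughout the intestinal epithelium and not in stem cells alone. The study's legends give as many mice per group as there are libraries, and the labels do not tie a library to a mouse. A library is taken as 1 sample, and p-values measure the spread between libraries. No Cre-only control is among these samples.

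At the base of each crypt, Lgr5-positive columnar cells sit between Paneth cells and renew the epithelium. Wnt signals and their amplifier, the receptor Lgr5, keep them as stem cells. Progeny that leave the niche become absorptive cells when Notch signaling is active and secretory cells when it is not. Most of these stem cells cycle, and a cycling cell holds mitotic transcripts in only part of its cycle. Fpr2 encodes a G protein-coupled receptor for formyl peptides, which bacteria and mitochondria release.

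**Figure D1:**
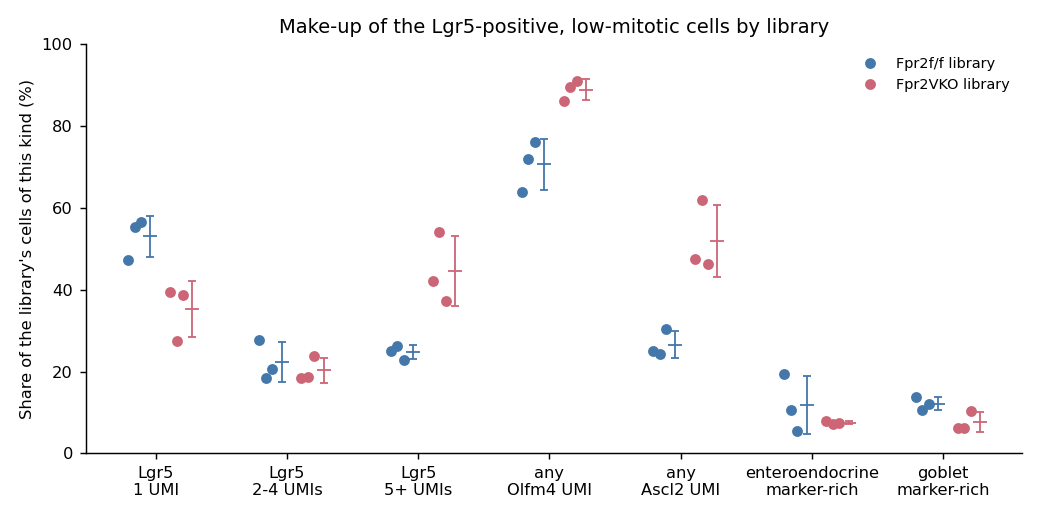
Make-up of the Lgr5+ low-mitotic cells in each of the 6 libraries: the vertical axis is the percent of a library's Lgr5+ low-mitotic cells, the points are libraries, and the bars are the mean ± SD of 3 libraries. The shares of cells with 5 or more Lgr5 UMIs, with an Ascl2 UMI and with an Olfm4 UMI lay higher in all 3 Fpr2VKO libraries than in any Fpr2f/f library. Shares are at full depth, and the cells were deeper in the Fpr2VKO libraries.

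The 525 cells numbered 36, 103 and 92 in Fpr2f/f libraries 1 to 3 and 114, 113 and 67 in Fpr2VKO libraries 1 to 3. Their depth ran from 5004 to 85716 UMIs with a median of 19909. They were deeper in the knockout libraries, with a median of 17371 ± 1012 UMIs in Fpr2f/f and 22943 ± 2424 in Fpr2VKO (SD, n = 3), and the groups did not overlap. Their median mitochondrial share also lay higher, at 11.7% ± 0.567 and 13.7% ± 1.25, again without overlap. Summed over cells, a library held 659020 to 2844827 UMIs of this population. The part of these depth and mitochondrial differences in the results below was not tested. Values at an equal depth are given for the share of kept barcodes, for the detection of single genes and for the summed share of replication genes by genotype, and other shares are at full depth. Of the 525 cells, 48 carried a barcode that also held 1000 or more UMIs in another library, where 16.35 were expected by chance.

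Lgr5 itself was sparse in most of these cells. It was represented by 1 UMI in 228 cells, by 2 to 4 in 106 and by 5 or more in 191, with a maximum of 108. The markers that were not part of the rule followed these steps. Olfm4, which encodes a secreted glycoprotein of crypt base stem cells, was detected in 68.0% of cells with 1 Lgr5 UMI, in 82.1% with 2 to 4 and in 96.9% with 5 or more. Ascl2, a transcription factor of the stem cell program, was detected in 11.8%, 38.7% and 78.0% of the same groups. Smoc2, a secreted matrix protein gene enriched in Lgr5-positive cells, was detected in 59.6%, 80.2% and 98.4%. The median depth of the groups was 14540, 16308 and 23332 UMIs, so detection and depth rose together and their parts were not separated.

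**Figure D2:**
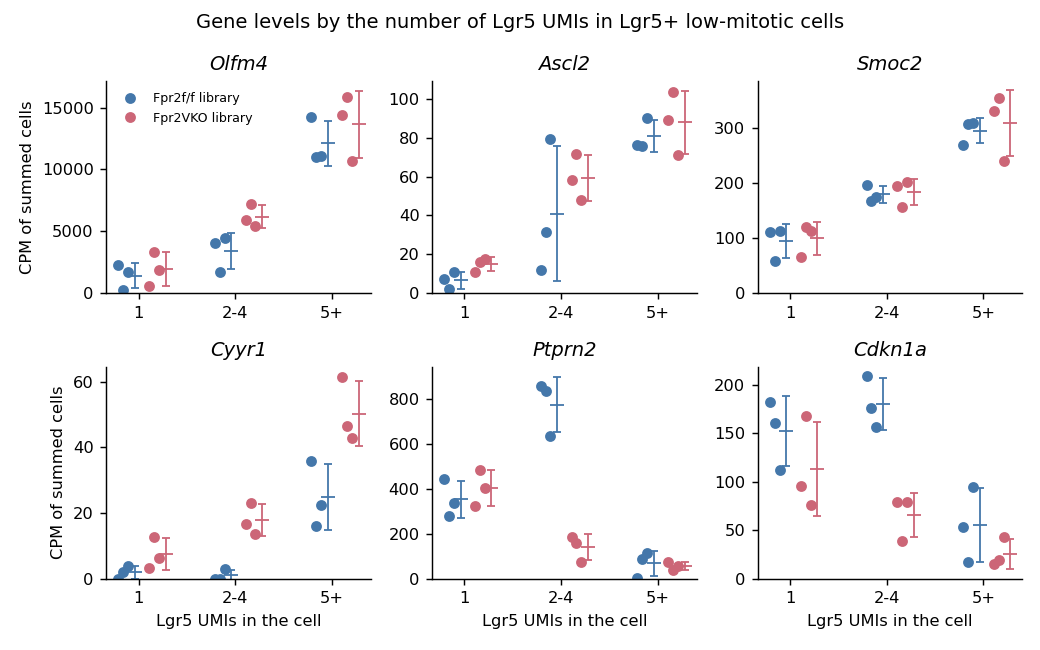
Lgr5+ low-mitotic cells grouped by the number of Lgr5 UMIs (1, 2 to 4, 5 or more): each point is the CPM of the gene named above the panel in the summed cells of 1 library (vertical axis), and the bars are the mean ± SD of 3 libraries. Olfm4, Ascl2, Smoc2 and Cyyr1 lay highest in cells with 5 or more Lgr5 UMIs and Ptprn2 lay lowest there, and Ptprn2 and Cdkn1a were apart between genotypes in cells with 2 to 4.

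The label of stem cells therefore held for some of these cells more than for others. All of Olfm4, Ascl2 and Smoc2 were found in 207 cells and none of them in 47. Cells with 1 Lgr5 UMI were rich in transcripts of another cell class in 29.8% of cases, against 30.2% of cells with 2 to 4 and 8.90% of cells with 5 or more. Rich means at least 1% of UMIs in 7 goblet cell genes or 12 enterocyte genes, at least 0.3% in 9 enteroendocrine genes, or at least 0.1% in tuft or immune genes. By this measure 48 cells were rich in goblet cell genes, 45 in enteroendocrine genes, 12 in tuft cell genes, 8 in enterocyte genes and 4 in immune genes, and 117 were rich in any of them. Each of the 8 enterocyte-rich and 4 immune-rich cells held 1 Lgr5 UMI, and the 4 immune-rich cells were all in Fpr2VKO library 1. Of the enteroendocrine-rich cells 22 had an Olfm4 UMI and 6 had 5 or more Lgr5 UMIs.

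Levels of the stem cell genes set the population apart from the 3972 Lgr5-negative low-mitotic cells and from 549 barcodes rich in enterocyte genes. In counts per 1000000 summed UMIs (CPM), Olfm4 was 3905 to 11004 across the 6 libraries in the Lgr5+ low-mitotic cells, 273.9 to 498.0 in the Lgr5-negative cells and 9.95 to 46.4 in the enterocyte-rich barcodes. Ascl2 was 30.4 to 74.6, 1.28 to 5.26 and 0 to 1.61 CPM in the same order. For both genes every library of the Lgr5+ low-mitotic cells lay above every library of the other populations, whose values overlapped with each other for Ascl2. These populations were not fully separate. The enterocyte-rich barcodes were taken whatever their Lgr5 or mitotic transcripts. They held the 8 enterocyte-rich Lgr5+ low-mitotic cells and could share barcodes with the Lgr5-negative cells. Lgr5 itself was 13.3 to 18.8 CPM in RNA outside cells, read from barcodes under 100 UMIs, and 0 to 2.16 CPM in the enterocyte-rich barcodes. Olfm4 in free RNA was 251 to 297 CPM in Fpr2f/f and 546 to 647 in Fpr2VKO libraries. The 228 cells with a single Lgr5 UMI had 287 to 3363 CPM of Olfm4, and were near the free RNA of their own library in Fpr2f/f library 2 (287 against 265) and Fpr2VKO library 1 (617 against 546).

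The limits of the rule cut through a continuum. The 42 cells just under the mitotic limit, at 0.04% to under 0.05%, had a median of 0.208% of UMIs in 35 DNA replication genes and 0.0624% in 22 mitosis genes that the rule did not use. The 33 Lgr5-positive cells just above it, at 0.05% to under 0.06%, had 0.289% and 0.106%. Replication transcripts were thus present inside the population too, where they ranged from 0% to 0.936% of UMIs with a median of 0.137%, and 268 cells under 0.01% mitotic transcripts had a median of 0.0916%. At the Paneth limit, 12 cells lay at 5% to under 10% of UMIs and 498 lay under 1%.

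To ask whether loss of Fpr2 changed how many such cells there were, their share of kept barcodes was compared between genotypes. The share was 3.67% (Wilson 95% interval 2.67% to 5.04%), 4.87% (4.03% to 5.87%) and 7.07% (5.80% to 8.59%) in Fpr2f/f libraries 1 to 3. It was 8.25% (6.91% to 9.82%), 7.26% (6.07% to 8.65%) and 6.18% (4.90% to 7.77%) in Fpr2VKO libraries 1 to 3. The groups overlapped, since Fpr2f/f library 3 lay above Fpr2VKO library 3. The means were 5.20% ± 1.72 and 7.23% ± 1.03 (SD, n = 3 each, exact two-sided permutation p = 0.2, where 0.1 is the smallest value that 3 libraries against 3 can give, so that no such test here could reach 0.05). Intervals cover counting error only. Shares of barcodes also depend on what the sort, the dissociation and the limits kept: 64.9% to 78.9% of barcodes with 5000 or more UMIs were removed by the mitochondrial limit.

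Depth and Lgr5 detection touched this share. When every kept barcode was first thinned to 5000 UMIs and the rule was applied again, the share was 2.93% ± 0.738 in Fpr2f/f and 4.78% ± 0.624 in Fpr2VKO, without overlap (exact p = 0.1). Lgr5-positive barcodes of every kind made up 12.6% ± 3.23 and 19.5% ± 2.19 of kept barcodes, without overlap (exact p = 0.1). Low-mitotic cells were 51.5% ± 6.28 and 48.2% ± 9.37 of the Lgr5-positive cells that passed the Paneth limit (exact p = 0.6). With a mitochondrial limit of 10% instead of 20% the direction turned, and Lgr5+ low-mitotic cells were 5.28% ± 1.93 and 4.16% ± 1.89 of kept barcodes (exact p = 0.5). With one of 40% they were 3.99% ± 0.964 and 5.99% ± 0.320, without overlap (exact p = 0.1). Nor did the groups overlap with at least 2 Lgr5 UMIs (2.39% and 4.68%) or with an Olfm4 UMI (3.74% and 6.40%). Over the 3 shares without thinning and at the limits of the rule, the adjusted p (Benjamini-Hochberg) was 0.3 or more.

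Within the population, cells with much Lgr5 made up more of the Fpr2VKO libraries. Cells with 5 or more Lgr5 UMIs were 25%, 26.2% and 22.8% of the Lgr5+ low-mitotic cells in Fpr2f/f libraries 1 to 3 and 42.1%, 54.0% and 37.3% in Fpr2VKO libraries 1 to 3. Cells with a single UMI were 47.2%, 55.3% and 56.5%, and 39.5%, 27.4% and 38.8%. The groups overlapped in neither measure, and as Lgr5 chose the cells, no test is given. Cells in which Olfm4, Ascl2 and Smoc2 were all detected were 25%, 22.3% and 25% in Fpr2f/f and 44.7%, 61.9% and 46.3% in Fpr2VKO. All these shares are at full depth, and the cells were deeper in Fpr2VKO.

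Detection of single genes was compared at an equal depth of 5000 UMIs per cell. Olfm4 was detected in 58.1% ± 7.29 of Fpr2f/f and 79.7% ± 4.81 of Fpr2VKO cells, and Ascl2 in 13.0% ± 2.08 and 21% ± 5.12 (n = 3 each, exact p = 0.1 for each gene). Neither overlapped between the groups. Among cells with 5 or more Lgr5 UMIs, however, the difference was 1.58 percentage points for Olfm4 (exact p = 0.7) and -1.25 for Ascl2 (exact p = 1). Olfm4 was detected there in 93.1% ± 6.01 and 94.7% ± 3.29, so a difference as large as that over all cells could not appear. With a mitochondrial limit of 10%, which left 13 cells in Fpr2f/f library 1 and 6 in Fpr2VKO library 3, Olfm4 overlapped (exact p = 0.4) and the Ascl2 difference was -1.09 points (exact p = 1). Ascl2 also overlapped with a mitochondrial limit of 40% (exact p = 0.3) and with at least 10000 UMIs (exact p = 0.2). It overlapped too with at least 2 Lgr5 UMIs (exact p = 0.4) and with an Olfm4 UMI (exact p = 0.2). Olfm4 did not overlap in these further settings, but the last of them chose cells by Olfm4 itself and is no check of that gene. Free RNA held more Olfm4 in the Fpr2VKO libraries (above), and its part in the detection of Olfm4 was not tested. The Wnt target Axin2 was detected in 36.1% ± 2.90 and 45.1% ± 6.98, without overlap (exact p = 0.1). Without the cells rich in another class it was at 48.2% ± 1.02 and 51.1% ± 7.50 (exact p = 1), and among cells with an Olfm4 UMI at 45.5% ± 5.47 and 48.6% ± 8.54 (exact p = 0.8), with overlap in both. In dividing Lgr5+ cells at the same depth Ascl2 was detected in 17.1% ± 1.38 and 21.1% ± 2.17, without overlap, and Olfm4 in 83.6% ± 6.56 and 90.1% ± 3.87, with overlap. In Lgr5-negative low-mitotic cells Olfm4 was detected in 24.5% ± 1.31 and 34.1% ± 6.19, without overlap, and Ascl2 in 1.00% ± 0.675 and 1.65% ± 0.570, with overlap. In enterocyte-rich barcodes Olfm4 was detected in 10.3% ± 4.10 and 20.6% ± 7.07, Ascl2 in 0.533% ± 0.924 and 0.251% ± 0.434, and Axin2 in 7.89% ± 4.31 and 5.79% ± 2.41. Smoc2, at 50.8% ± 5.58 and 56.4% ± 3.28, overlapped (exact p = 0.2). Over the 13 genes compared this way, among them Mki67, which the rule used, the adjusted p was 0.325 or more for each.

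The cell cycle genes Pcna, Mcm6 and Ccnd1 and the Notch pathway genes Hes1 and Dll1 overlapped between genotypes at equal depth. The replication clamp gene Pcna was detected in 63.7% ± 12.9 and 66.9% ± 4.14 of cells (exact p = 0.8) and the helicase subunit gene Mcm6 in 33.1% ± 5.39 and 40.6% ± 10.1 (exact p = 0.4). Ccnd1, the cyclin D1 gene of G1 phase, was detected in 50.2% ± 12.8 and 48.9% ± 2.88 (exact p = 0.9), but among cells with an Olfm4 UMI in 58.7% ± 3.59 and 52.7% ± 2.60, without overlap (exact p = 0.1). In dividing Lgr5+ cells at the same depth Ccnd1 was detected in 65.2% ± 3.56 and 54.5% ± 1.67, without overlap. For Notch, the target Hes1 was at 53.7% ± 5.28 and 48.5% ± 9.33 (exact p = 0.5) and the ligand Dll1, which marks early secretory cells, at 12.8% ± 0.982 and 13.3% ± 0.833 (exact p = 0.7). With a mitochondrial limit of 40% Dll1 was at 10.3% ± 1.37 and 13.2% ± 1.37, without overlap (exact p = 0.1). The summed share of UMIs in the replication genes was 0.169% ± 0.0158 and 0.209% ± 0.0453 at equal depth (exact p = 0.2), and 0.175% ± 0.0194 and 0.225% ± 0.0576 at full depth (exact p = 0.3).

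Fpr2 could not be compared. No Fpr2 UMI was found in the Lgr5+ low-mitotic cells of any of the 6 libraries, which allows up to 1.05 to 4.55 CPM per library (3 counts of the summed UMIs). The deletion was therefore not detectable from these counts, and the genotypes rest on the labels.

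Differences in expression were then tested on counts summed over the cells of each library (edgeR quasi-likelihood test, adjusted p under 0.05 by Benjamini-Hochberg over all genes tested). In Lgr5+ low-mitotic cells 6 of 10215 genes were called (0.0587%), of which 2 were higher (0.0196%) and 4 lower (0.0392%) in Fpr2VKO, and 729 genes had an unadjusted p under 0.05. The genes that rose were Mt1, a metallothionein that binds zinc and copper, and Cyyr1, a small membrane protein gene. Those that fell were Cdkn1a, which encodes the cell cycle inhibitor p21, and Stxbp5l, Ptprn2 and Fgf14, genes known for vesicle release, hormone granules and excitability in neurons and endocrine cells.

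**Figure D3:**
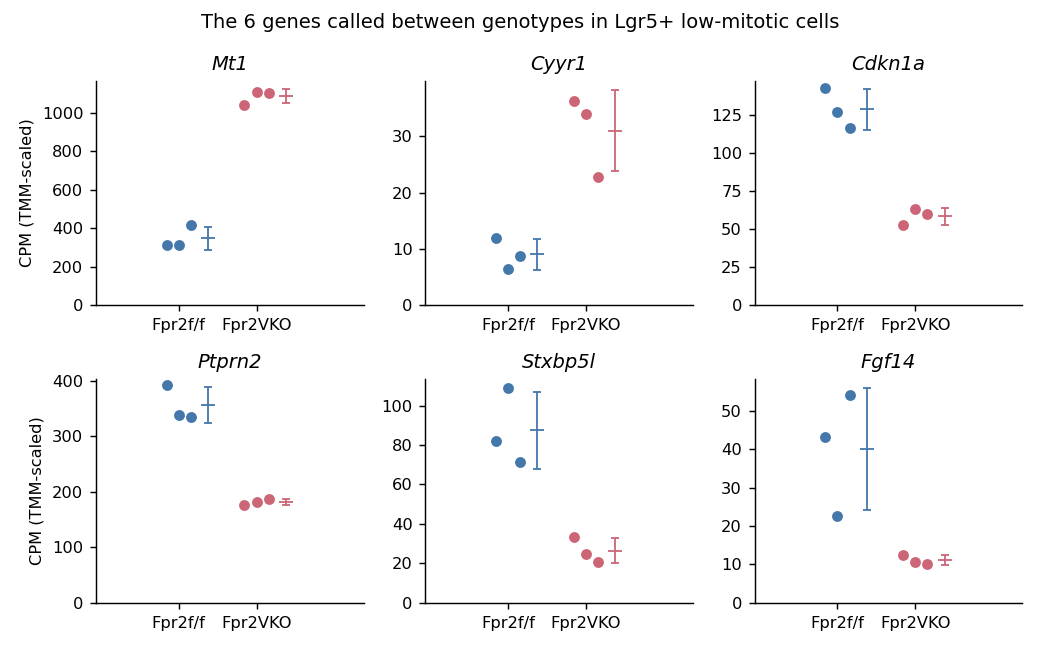
The 6 genes called in Lgr5+ low-mitotic cells: CPM scaled by TMM factors (vertical axis) in each library (points), with the mean ± SD of 3 libraries per genotype. In each of the 6 genes the Fpr2f/f and Fpr2VKO libraries do not overlap.

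Mt1 (ENSMUSG00000031765, chromosome 8, 94179082 to 94180327, plus strand, GRCm38) was at 313, 312 and 418 scaled CPM in Fpr2f/f libraries 1 to 3 and at 1042, 1109 and 1104 in Fpr2VKO libraries 1 to 3. All knockout libraries lay above all controls, with little spread among them. The log2 fold change was 1.64 (SE 0.16, edgeR adjusted p = 0.00019). Mt1 was found in 183 of 231 Fpr2f/f cells and in 292 of 294 Fpr2VKO cells. At equal depth it was detected in 67.5% ± 4.92 and 97.8% ± 0.706 (exact p = 0.1, n = 3), but enterocyte-rich barcodes gave 62.3% ± 4.59 and 99.2% ± 0.692.

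Mt1 lay higher in Fpr2VKO in each population looked at and also outside cells. In Lgr5+ low-mitotic cells it was 270 to 455 CPM in Fpr2f/f and 1213 to 1286 in Fpr2VKO for cells with 1 Lgr5 UMI, 125 to 337 and 996 to 1116 with 2 to 4, and 300.0 to 451 and 862 to 1139 with 5 or more. In dividing Lgr5+ cells it was 347 to 524 and 946 to 1061 CPM, in Lgr5-negative low-mitotic cells 279.6 to 447 and 1413 to 1642, and in enterocyte-rich barcodes 329 to 492 and 2139 to 2379. The genotypes did not overlap in any of these. In free RNA it was 148 to 236 and 865 to 1111 CPM, and the part of free RNA in the cell values was not tested. The difference in Lgr5+ low-mitotic cells was not distinguishable from that in dividing Lgr5+ cells (interaction log2 0.40, edgeR adjusted p = 0.86).

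**Figure D4:**
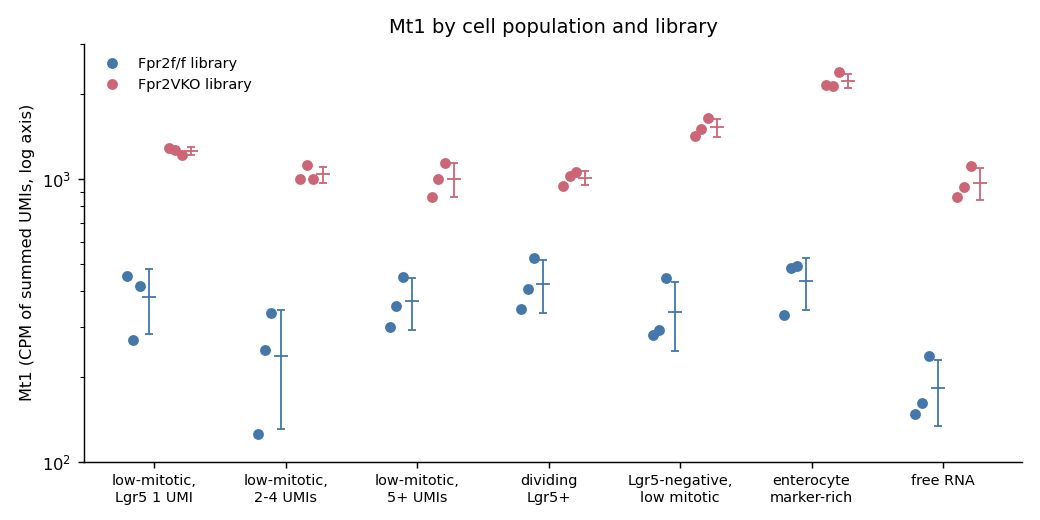
Mt1 by cell population: CPM of summed UMIs (vertical axis, log scale) in each of the 6 libraries (points), with the mean ± SD of 3 libraries and with free RNA at the right. The Fpr2VKO libraries lie above the Fpr2f/f libraries in every population, with the highest values, 2139 to 2379, in barcodes rich in enterocyte genes.

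Mt1 and its neighbor Mt2 are induced by metals through the factor Mtf1, which binds metal response elements, and the 250 bases before each start in RefSeq are shown because Mt1 was called and Mt2 was not. The bases are from RefSeq (GRCm38.p6, plus strand), in lower case, and capitals mark each match to TGCACNC or TGCGCNC, the 2 forms of the element core that were searched, on either strand.
Mt1: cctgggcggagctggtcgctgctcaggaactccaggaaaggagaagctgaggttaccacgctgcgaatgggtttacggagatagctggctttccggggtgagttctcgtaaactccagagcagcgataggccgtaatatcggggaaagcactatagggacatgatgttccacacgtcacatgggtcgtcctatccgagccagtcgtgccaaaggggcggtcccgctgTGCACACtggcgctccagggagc
Mt2: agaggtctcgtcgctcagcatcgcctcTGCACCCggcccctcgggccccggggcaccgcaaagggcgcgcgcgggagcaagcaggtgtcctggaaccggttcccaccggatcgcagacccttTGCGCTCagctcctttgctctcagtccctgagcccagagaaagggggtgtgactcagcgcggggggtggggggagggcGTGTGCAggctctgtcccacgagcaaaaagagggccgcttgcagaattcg
The Mt1 window (chr8:94178839-94179088) held 1 match, beginning 23 bases before the RefSeq start, and the Mt2 window (chr8:94172368-94172617) held 3. Bases beyond these windows were not searched, so the counts do not give the number of elements of either gene. TGCACNC was found in 10.4% and TGCGCNC in 12.5% of 32851 mouse promoter windows of this length, at least 1 of either form in 21.4% and at least 3 in 1.26%. Mt2 was at 62.5, 21.6 and 62.4 scaled CPM in Fpr2f/f libraries 1 to 3 and at 33.4, 47.2 and 59.3 in Fpr2VKO libraries 1 to 3 (log2 fold change -0.03, edgeR adjusted p = 0.995). Of the 17 metallothionein and zinc transport genes tested, Mt1 was the only one called, and their median log2 fold change was -0.03 against -0.01 over all genes tested. No match to either form or to the TCF/LEF core ATCAAAG (3.21% of windows) was found in the windows of Cyyr1, Cdkn1a, Stxbp5l, Ptprn2, Fgf14, Olfm4 or Ascl2. RefSeq starts can differ from those of the gene positions given here: the Mt1 window reaches a few bases into the gene, that of Stxbp5l and one of the windows of Cdkn1a do likewise, and the windows of Cyyr1, Fgf14 and Olfm4 and the other of Cdkn1a lie inside the gene.

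Cyyr1 (chromosome 16, 85421533 to 85553397, minus strand) was at 11.9, 6.48 and 8.76 scaled CPM in Fpr2f/f libraries 1 to 3 and at 36.3, 33.9 and 22.8 in Fpr2VKO libraries 1 to 3. The groups did not overlap (log2 fold change 1.88, SE 0.31, edgeR adjusted p = 0.026). It was found in 20 of 231 and in 69 of 294 cells, and 82.7% of its UMIs lay in cells with 5 or more Lgr5 UMIs, which were a larger share of the cells in Fpr2VKO. Among those cells alone it was at 35.8, 16.2 and 22.6 and at 61.4, 46.4 and 42.8 CPM, still without overlap, but the log2 fold change was 1.16 and the gene was not called (edgeR adjusted p = 0.94). That fit used all 6 libraries, of which Fpr2f/f library 1 held 9 such cells. Leaving out Fpr2f/f library 2 or 3 or Fpr2VKO library 1 or 2 also ended the call, with adjusted p from 0.15 to 0.30.

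Cdkn1a (chromosome 17, 29090976 to 29100727, plus strand) fell from 143, 127 and 117 scaled CPM in Fpr2f/f libraries 1 to 3 to 52.5, 63.1 and 59.9 in Fpr2VKO libraries 1 to 3. Every knockout library was below every control (log2 fold change -1.13, SE 0.16, edgeR adjusted p = 0.0090). It was found in 102 of 231 Fpr2f/f cells and in 118 of 294 Fpr2VKO cells, and 5 cells held 27.2% and 30.3% of its UMIs there. Cells not rich in another class held 58.8% of its UMIs. Enteroendocrine-rich cells, 8.57% of all cells, held 17%, and goblet-rich cells, 9.14% of all cells, held 15.9%. Cells with 2 to 4 Lgr5 UMIs were apart, at 209, 176 and 156 CPM in Fpr2f/f and 79.2, 39.3 and 78.7 in Fpr2VKO, whereas cells with 1 UMI and with 5 or more overlapped between genotypes. Without the 117 cells rich in another class the log2 fold change was -1.19, and the gene was no longer called (edgeR adjusted p = 0.77). The call also ended without Fpr2f/f library 3 and without Fpr2VKO library 1 or 2, with adjusted p from 0.058 to 0.15, and with a mitochondrial limit of 10% (log2 fold change -1.81, adjusted p = 0.999). In dividing Lgr5+ cells Cdkn1a was lower at 44.1 ± 12.5 and 22.8 ± 8.71 scaled CPM but was not called (log2 fold change -0.93, edgeR adjusted p = 0.56).

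The other genes that fell lay mostly in few cells. The 5 cells with the most Ptprn2 held 41.5% of its UMIs in Fpr2f/f and 34.9% in Fpr2VKO. For Stxbp5l such cells held 59.2% and 66.1%, and for Fgf14 51.2% and 51.9%. Ptprn2 (chromosome 12, 116485720 to 117276849, plus strand) was at 393, 339 and 335 scaled CPM in Fpr2f/f libraries 1 to 3 and at 176, 182 and 186 in Fpr2VKO libraries 1 to 3 (log2 fold change -0.97, SE 0.14, edgeR adjusted p = 0.0090). The 45 enteroendocrine-rich cells held 85.6% of its UMIs, and each of them carried it. By Lgr5 level, Ptprn2 was at 859, 834 and 634 CPM in Fpr2f/f and 187, 159 and 75.3 in Fpr2VKO cells with 2 to 4 Lgr5 UMIs, where a library held 10 to 21 cells, and overlapped in the others. Stxbp5l (chromosome 16, 37114942 to 37384962, minus strand) was at 81.9, 109 and 71.1 and at 33.4, 24.9 and 21 (log2 fold change -1.71, SE 0.22, edgeR adjusted p = 0.0035), with 89.7% of its UMIs in those cells. Fgf14 (chromosome 14, 123977907 to 124677127, minus strand) was at 43.2, 22.7 and 54.2 and at 12.6, 10.7 and 10.2 (log2 fold change -1.81, SE 0.31, edgeR adjusted p = 0.046), with 69.2% there. The groups overlapped in none of these genes. Leaving out Fpr2VKO library 2 ended each of these 3 calls (adjusted p from 0.058 to 0.34). Leaving out Fpr2f/f library 3 or Fpr2VKO library 1 or 3 also ended the Ptprn2 and Fgf14 calls, as did leaving out Fpr2f/f library 1 for Fgf14, with adjusted p from 0.062 to 0.48. With a mitochondrial limit of 10% none of the 3 was called and Ptprn2 turned, with log2 fold changes of 0.19 for Ptprn2, -0.27 for Stxbp5l and -0.64 for Fgf14, on sums that held 13 cells in Fpr2f/f library 1 and 6 in Fpr2VKO library 3.

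The share of endocrine cells is given beside these genes. The enteroendocrine-rich share was 19.4%, 10.7% and 5.43% in Fpr2f/f libraries 1 to 3 and 7.89%, 7.08% and 7.46% in Fpr2VKO libraries 1 to 3, and the groups overlapped. The 9 enteroendocrine marker genes together took 0.238% to 0.674% and 0.214% to 0.333% of UMIs, also with overlap. Of the 8 tested, 7 were estimated lower in Fpr2VKO, with a median log2 fold change of -0.80, and none was called. Goblet-rich cells were 13.9%, 10.7% and 12% (5, 11 and 11 cells), and 6.14%, 6.19% and 10.4% (7, 7 and 7 cells). The groups did not overlap, but only by the gap between 10.7% and 10.4%. The 7 goblet genes took 0.625% to 2.40% and 0.484% to 0.610% of UMIs. Without the 117 cells rich in another class Ptprn2 was not called (log2 fold change -2.25, edgeR adjusted p = 0.88) and Mt1 was the only gene called. Whether the composition or the level per cell differed cannot be told apart in such sums.

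The stem cell program was compared gene by gene. None of the 26 crypt base genes tested besides Lgr5, which the rule used, was called, 22 had an estimate above 0 in Fpr2VKO, and their median log2 fold change was 0.35 against -0.01 over all genes. Without overlap, 7 were higher and 1 was lower, where 6.47% of all genes lay wholly higher and 6.09% wholly lower. Olfm4 was at 6647, 4167 and 4712 scaled CPM in Fpr2f/f libraries 1 to 3 and at 8807, 11208 and 6118 in Fpr2VKO libraries 1 to 3. Fpr2VKO library 3 lay within the control range (log2 fold change 0.75, SE 0.23, edgeR adjusted p = 0.51). Ascl2 was at 31.3, 32.4 and 44.3 and at 60.8, 76.0 and 44.9, without overlap but by a narrow gap (log2 fold change 0.73, SE 0.22, edgeR adjusted p = 0.48).

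Other crypt base genes had larger or steadier estimates. The water channel gene Aqp4 was at 105 ± 24.0 and 195 ± 39.4 scaled CPM (log2 fold change 0.93, SE 0.19, edgeR adjusted p = 0.16) and the chloride importer gene Slc12a2 at 635 ± 99.9 and 1003 ± 260.2 (log2 fold change 0.66, edgeR adjusted p = 0.45). The transcription factor gene Sox9, at 171 ± 7.08 and 233 ± 29.0, and the potassium channel gene Kcnq1, at 307 ± 19.3 and 426 ± 47.6, had log2 fold changes of 0.45 and 0.47 (edgeR adjusted p = 0.51 and 0.49). These 4 genes did not overlap between genotypes. Ephb3, a receptor that positions cells in the crypt, was lower without overlap at a log2 fold change of -0.33, and it was not called. Smoc2, with log2 fold change 0.35 (edgeR adjusted p = 0.69), overlapped.

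Where Lgr5 was high, the levels of these markers overlapped between genotypes. In cells with 5 or more Lgr5 UMIs, 9 to 61 per library, Olfm4 was at 14223, 11017 and 11046 CPM in Fpr2f/f libraries 1 to 3 and at 14396, 15881 and 10652 in Fpr2VKO libraries 1 to 3. Ascl2 was at 76.1, 76.0 and 90.2 and at 89.4, 103 and 71.3 CPM in the same cells, and Smoc2 at 269, 307 and 310 and at 332, 355 and 241. Fpr2VKO library 3 was the lowest of the 6 for each of these 3 genes.

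None of 15 glycolysis genes was called, 13 had an estimate below 0 with a median log2 fold change of -0.36, and none of the 15 lay wholly lower. Esrrg, a nuclear receptor gene of oxidative metabolism named here after its values were seen, just missed the threshold at 169 ± 14.5 and 337 ± 87.8 scaled CPM (log2 fold change 0.99, SE 0.18, edgeR adjusted p = 0.056).

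In the cell cycle lists Cdkn1a was the only gene called. The 34 DNA replication genes tested had 29 estimates above 0 with a median log2 fold change of 0.29, and 2 of the 34 were higher without overlap, beside 6.47% of all genes. The 21 mitosis genes tested that the rule did not use, which the mitotic limit also holds down, had 16 estimates below 0 with a median of -0.15, and 1 lay wholly lower, beside 6.09% of all genes. Of 17 regulators of G1 and S phase 10 had estimates above 0 (median 0.05), and 2 lay wholly higher and 2 wholly lower. Pcna was at 344 ± 45.4 and 471 ± 129 scaled CPM (log2 fold change 0.45, edgeR adjusted p = 0.68). Cdk6, a kinase of G1 phase, was at 172 ± 13.4 and 249 ± 53.4 (log2 fold change 0.53, edgeR adjusted p = 0.49), and Ccnd1, its cyclin partner, at 216 ± 16.7 and 192 ± 2.04 (log2 fold change -0.17, edgeR adjusted p = 0.85). Both were without overlap. Of the 15 tested genes that the study used as cell cycle genes and the rule did not, 12 had an estimate above 0 and none was called. In dividing Lgr5+ cells 8 of all 16 such genes, Mki67 included, were estimated higher and 8 lower, without a call. The study reported these genes from the same libraries, over its whole stem cell cluster and not over cells chosen for few mitotic transcripts. The count is therefore no independent evidence for either direction.

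Signaling lists gave no call in Lgr5+ low-mitotic cells. None of 13 Wnt target genes (median log2 fold change 0.28), 14 Notch genes (0.08), 13 BMP genes (0.13), 14 Hippo genes (0.05) or 13 genes of EGF and ERK signaling (-0.18) was called. Of these, 3 BMP genes, 3 Hippo genes, 1 Wnt target and 1 Notch gene lay wholly higher in Fpr2VKO, beside 6.47% of all genes, and 2 Wnt targets, 1 BMP gene and 1 Notch gene lay wholly lower, beside 6.09%. The 5 secretory progenitor genes tested had a median of -0.55, with 4 estimates below 0. Among 10 genes of the unfolded protein response 7 had estimates below 0 and 5 lay wholly lower in Fpr2VKO, beside 6.09% of all genes, among them Herpud1 (log2 fold change -0.61) and Dnajb9 (-0.58), without a call. None of 15 interferon-response genes was called, 13 of them had estimates below 0, and 3 lay wholly lower. Of the 80 ribosomal protein genes tested none was called (median log2 fold change 0.02).

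To see what low mitotic transcript content went with, Lgr5+ low-mitotic cells were compared with dividing Lgr5+ cells of the same libraries, with the library as a block. Both were split by mitotic transcripts, so the mitosis genes only describe the split: all 22 mitosis genes outside the rule were lower, with a median log2 fold change of -3.17. Of 10101 genes 3212 were called (31.8%), 1592 higher (15.8%) and 1620 lower (16%) in the low-mitotic cells, and 1043 were called with each cell at 5000 UMIs. The dividing cells had a median of 10109 to 41229 UMIs per library. Cell cycle lists, which move with the split, and others are therefore given as counts beside these shares.

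**Figure D5:**
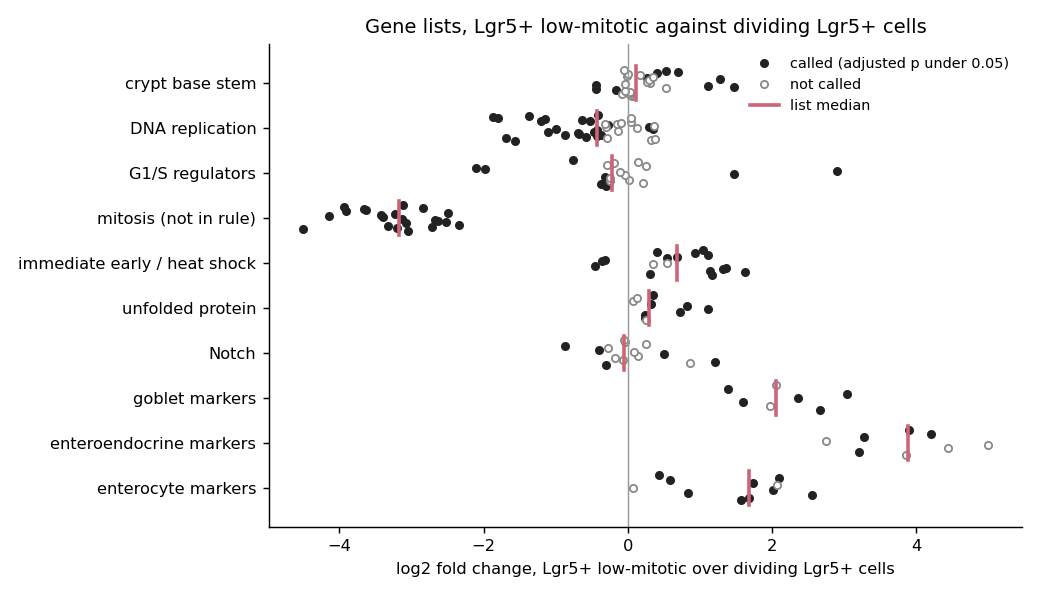
Log2 fold change of each gene of the named lists between Lgr5+ low-mitotic and dividing Lgr5+ cells (horizontal axis, above 0 is higher in low-mitotic cells): each point is 1 gene, filled where it was called, each line of points is 1 list, and the upright bars are list medians. Mitosis genes lie farthest to the left, with a median of -3.17, and the goblet, enteroendocrine and enterocyte markers to the right.

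Replication genes were lower in part. Of 35, 21 fell and 2 rose, with a median log2 fold change of -0.42. Tk1, for thymidine salvage, was at 24.9 ± 8.68 scaled CPM in low-mitotic and 88.4 ± 16.6 in dividing cells (SD over 6 libraries, log2 fold change -1.87), and the nucleotide reductase gene Rrm2 at 18.8 ± 9.14 and 67.3 ± 13.0 (log2 fold change -1.80). Both were lower in every library. The helicase genes Mcm2 and Mcm4, which load before S phase, were the 2 that rose, with log2 fold changes of 0.35 and 0.30 (edgeR adjusted p = 0.017 and 0.036). Among 18 regulators of G1 and S phase, Cdkn1c rose from 3.90 ± 2.56 to 28.7 ± 14.4 scaled CPM (log2 fold change 2.90) and Cdkn1a from 33.6 ± 15.2 to 94.1 ± 40.2 (1.47). Both encode inhibitors of cyclin-dependent kinases. Another 6 fell, including the inhibitor gene Cdkn2c (-1.97) and the cyclin gene Ccnd1 (-0.31).

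Stem cell genes went both ways between the 2 populations. Of 26 crypt base genes tested 7 rose and 3 fell, and the median log2 fold change was 0.11. Gkn3, a gastrokine gene, was at 56.6 ± 41.6 scaled CPM in low-mitotic and 20.3 ± 19.1 in dividing cells and was higher in 6 of 6 libraries (log2 fold change 1.47, SE 0.16, edgeR adjusted p = 1.0e-06). Phlda1 and Jun also rose (log2 fold change 1.28 and 1.11), each in 6 of 6 libraries, and Sox9 rose by 0.41 on the log2 scale. The part of tissue dissociation in the rise of Jun, as in that of the early response genes below, was not tested. Ephb2 and Kcne3 fell by 0.44 each, lower in all 6. Olfm4, at 6972 ± 2658 and 5574 ± 1667, was not called (log2 fold change 0.30, edgeR adjusted p = 0.11).

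Most early response genes rose. Of 17 immediate early and heat shock genes 12 rose and 3 fell. Dusp1, a phosphatase that switches off MAP kinases, was at 73.2 ± 25.3 and 22.9 ± 8.44 scaled CPM (log2 fold change 1.63, SE 0.13, edgeR adjusted p = 1.2e-09), and Fos, a subunit of AP-1, at 906 ± 318 and 384 ± 171 (log2 fold change 1.31). Each was higher in 6 of 6 libraries. The chaperone genes Hsp90aa1, Hspa8 and Hsph1 were the 3 that fell, Hsp90aa1 by 0.46 and Hspa8 by 0.35 on the log2 scale. Immediate early genes are known to be induced when tissue is dissociated, and the part of dissociation was not tested.

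Notch genes were called about as often as all genes, and markers of differentiated cells were higher in the low-mitotic cells. Of 14 Notch genes 2 rose and 3 fell, with a median log2 fold change of -0.05: the ligand gene Dll4 (log2 fold change 1.21) and the coactivator gene Maml1 (0.49) rose, and Notch1 (-0.39), its target Nrarp (-0.86) and the protease gene Adam10 fell. All 5 secretory progenitor genes tested had estimates above 0 and 2 rose. Of the markers tested, 9 of 11 for enterocytes, 5 of 7 for goblet cells, 4 of 8 for enteroendocrine cells and 4 of 5 for Paneth cells rose in the low-mitotic cells, with median log2 fold changes of 1.68, 2.05, 3.88 and 2.75, and none fell. The 10 called genes with the largest rise were Hmgn3, St18, Vim, Cacna2d1, Tac1, Runx1t1, Tph1, Mmp7, Dclk1 and Scn3a, each higher in 6 of 6 libraries. Tac1 and Tph1 belong to serotonin-making enteroendocrine cells, Mmp7 to Paneth cells and Dclk1 to tuft cells. Hmgn3 had the largest change, at 85.5 ± 36.0 against 3.23 ± 4.68 scaled CPM (log2 fold change 5.05, edgeR adjusted p = 4.3e-05). Enteroendocrine marker genes together took 0.214% to 0.674% of UMIs in low-mitotic and 0.00159% to 0.0973% in dividing cells. The comparison was not repeated without the cells rich in another class. Their part in the calls between the 2 populations, those of cell cycle inhibitors included, was not tested.

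The genotype difference was last compared between the low-mitotic and the dividing cells. In dividing Lgr5+ cells 4 of 10383 genes were called (0.0385%), 1 higher (0.00963%) and 3 lower (0.0289%) in Fpr2VKO. Mt1 rose (log2 fold change 1.24, SE 0.17, edgeR adjusted p = 0.0023), and Reg3g, an antibacterial lectin gene, Bcl2l15 and Vtcn1 fell, with log2 fold changes of -1.43, -1.36 and -3.24. Mt1 was the only gene called in both populations, which share no cells but come from the same libraries. The interaction of genotype and population was called for 3 of 10806 genes (0.0278%), Agr2, Klf6 and Lsmem1, and for none at 5000 UMIs per cell.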

How the data were processed

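The deposited values were UMI counts per gene and barcode for each of the 6 libraries, which the authors made from MobiNova-100 reads with MobiVision against mm10; the annotation version is not given in the sources used here, and the cell and doublet filters of the study came after these matrices. The members and all gene lists were chosen with earlier results of these data known. Counts were summed per library over the cells of a population, with at least 20 cells in each sum of the 4 comparisons tested, and tested in edgeR 4.0.16 (TMM factors, filterByExpr, robust quasi-likelihood fit) with R 4.3.3, with DESeq2 1.42.0 as an alternative; the alternatives with a mitochondrial limit of 10% or at least 2 or 5 Lgr5 UMIs kept all 6 libraries although some sums held 6 to 19 cells; sums of the 2 Lgr5-positive populations were compared with the library as a block, and the interaction was tested in the same fit. Scaled CPM are counts per 1000000 UMIs with TMM factors. Shares were compared over libraries by exact two-sided permutation tests (SciPy 1.17.1). Thinning drew 5000 UMIs from each barcode without replacement. Doublets were removed only in an alternative, at 0.8% per 1000 barcodes.

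In each comparison the text names Fpr2, genes of the lists, and up to 10 called genes per direction with the largest fold change, a mean of at least 20 CPM and no overlap between groups, or the same direction in all libraries for the comparison of populations. All called genes were named where fewer than 5 were called. The 4 genes called in dividing Lgr5+ cells are given for comparison. A list of fatty acid metabolism genes is not reported here. Gene positions are from GENCODE M21 on GRCm38, to which all 563 named gene IDs were matched. Tested on simulated counts for 10004 genes, the genotype test in Lgr5+ low-mitotic cells recovered 71% of genes changed by a log2 fold of 1 and 100% of those changed by 2. The interaction test recovered 31.3% and 95%. The simulation gave every gene the same spread between libraries (coefficient of variation 0.186 beyond counting error). It changed only genes with a mean of at least 20 CPM. Recovery of genes that vary more or are expressed less was not tested.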

Additional observations from a re-analysis of the deposited data

Results flagged for a closer look

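The interaction test called 3 genes whose genotype difference was not the same in Lgr5+ low-mitotic and in dividing Lgr5+ cells, although neither population's own difference was called. Agr2, a protein disulfide isomerase gene of mucus-secreting cells, was at 1535 ± 973 scaled CPM in Fpr2f/f and 983 ± 114 in Fpr2VKO low-mitotic cells and at 140 ± 96.4 and 269 ± 46.5 in dividing cells (n = 3 libraries each). The 2 log2 fold changes differed by -1.64 (SE 0.18, edgeR adjusted p = 0.0054). The low-mitotic groups overlapped, with 746, 2622 and 1236 in Fpr2f/f libraries 1 to 3 and 1059, 853 and 1038 in Fpr2VKO libraries 1 to 3. The 48 goblet-rich cells held 96.4% of the Agr2 UMIs of the low-mitotic cells. Agr2 is itself among the goblet cell genes that define these cells, so a large share there follows in part from the definition.

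Klf6, a zinc finger transcription factor gene, was at 175 ± 73.8 and 94.6 ± 31.9 scaled CPM in low-mitotic and at 65.5 ± 17.5 and 79.9 ± 24.3 in dividing cells, a difference in log2 fold change of -1.18 (edgeR adjusted p = 0.0070). Lsmem1, a membrane protein gene, was at 47.1 ± 16.3 and 31.8 ± 25.9 in low-mitotic and at 6.19 ± 5.74 and 31.5 ± 31.3 in dividing cells, a difference of -2.79 (edgeR adjusted p = 0.019). Goblet-rich cells held 35.7% of the Klf6 and 37.3% of the Lsmem1 UMIs of the low-mitotic cells, and their part in these differences was not tested. Of 12 alternatives, 8 kept the call of Agr2, 9 that of Klf6 and 5 that of Lsmem1.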

How the results depend on the processing

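Mt1 kept its direction and its call in Lgr5+ low-mitotic cells under all 23 alternatives (log2 fold change 1.40 to 2.30, edgeR or DESeq2 adjusted p up to 0.0063), while the other 5 called genes each lost the call under 5 to 14 of 21 to 23. Ptprn2 turned to a log2 fold change of 0.19 with a mitochondrial limit of 10%, which left 6 cells in Fpr2VKO library 3. The number of genes called between genotypes in these cells, 6, became 1 with that limit, with at least 5 Lgr5 UMIs or without cells rich in another class, 3 without barcodes that held 1000 UMIs in another library, 11 with at least 2 Lgr5 UMIs, 12 with an Olfm4 UMI, 16 with DESeq2, 71 with no filter on low counts, and 1 to 17 with 1 library left out. At 5000 UMIs per cell there were 9 calls, 4 higher and 5 lower. The limits of 5 Lgr5 UMIs, of other classes and of shared barcodes were chosen after seeing the data. In dividing cells the 4 calls became 1 at 5000 UMIs, 9 with DESeq2, 72 with no filter and 2 to 37 with 1 library left out. The 3212 calls between the populations became 1043 at 5000 UMIs and 2530 to 3071 with 1 library left out. The 3 interaction calls became 0 at 5000 UMIs (320 genes at an unadjusted p under 0.05), 1 with a mitotic limit of 0.02% or of 0.1%, 17 with no filter, and 2 to 7 with 1 library left out. Leaving out a library leaves 2 in its group, and the cause of these shifts was not tested.

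Replicate numbers are shared between genotypes, but they did not pair the libraries: deviations of same-numbered libraries correlated at -0.061, -0.007 and 0.062 over 6561 genes, and Fpr2VKO library 1 correlated best with Fpr2f/f library 2. With the replicate number as a block the calls were 18 in low-mitotic and 83 in dividing cells, and the 6 named genes kept their calls. Sign flips over 3 pairs cannot give less than 0.25 and left the shares at the same differences.

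The share of Lgr5+ low-mitotic cells differed by 2.03 percentage points (1.26 to 2.96 with 1 library left out). It differed by -1.11 with a mitochondrial limit of 10% and by 2.00 with one of 40%. Replication transcripts differed by 0.0406 points (0.0183 to 0.0636 with 1 library left out). The difference was 0.00772 with at least 5 Lgr5 UMIs and 0.0203 with an Olfm4 UMI. It was 0.0180 with a mitotic limit of 0.02% and 0.0734 with a mitochondrial limit of 10%, and the groups overlapped in each. The following values are differences in detection in percentage points, Fpr2VKO minus Fpr2f/f. Without thinning they were 25.3 for Ascl2, 11.9 for Ccnd1, 5.58 for Hes1, -5.66 for Dll1, 1.13 for Muc2 and 20.7 for Mt1. With a mitochondrial limit of 10% they were -1.09 for Ascl2, -3.98 for Smoc2, -3.94 for Dll1 and 46.0 for Mt1, and with one of 40% 2.86 for Dll1 and 36.6 for Mt1. With a mitotic limit of 0.02% they were 13.3 for Ascl2, 2.02 for Dll1 and 35.7 for Mt1. Among cells with an Olfm4 UMI they were 7.66 for Olfm4 (which chose these cells), 3.15 for Dll1 and 24.8 for Mt1. Among cells with at least 5 Lgr5 UMIs they were 1.58 for Olfm4, -1.25 for Ascl2, -0.0044 for Smoc2, 2.73 for Dll1 and 21 for Mt1. In the latter cells Mt1 detection overlapped, at 55.6% to 100% in Fpr2f/f and 96.7% to 100% in Fpr2VKO libraries (exact p = 0.4). With at least 2 Lgr5 UMIs Smoc2 was at -2.01 and Dll1 at 1.88. Without cells rich in another class Dll1 was at -1.37 and Mt1 at 19.6. Dll1 was at 3.24 with at least 10000 UMIs, -1.47 with a Paneth limit of 2% and -0.81 without barcodes shared with another library. Muc2 was at -7.87 under the rule itself, and at -12.0 without overlap with a mitotic limit of 0.02%. Chga was at -6.80 under the rule itself, and at -12.6 without overlap with at least 2 Lgr5 UMIs. With a mitochondrial limit of 10% Chga was at -0.04. With 1 library left out the ranges were 17.6 to 24.6 for Olfm4, 5.31 to 10.4 for Ascl2, 2.55 to 8.0 for Smoc2, 4.94 to 11.3 for Axin2, -2.13 to 5.69 for Mki67 (which the rule used), -2.40 to 10.3 for Pcna, 1.74 to 10.6 for Mcm6, -6.92 to 5.70 for Ccnd1, -10.6 to -2.21 for Hes1, 0.0306 to 0.997 for Dll1, -12.3 to -4.02 for Muc2, -9.89 to -1.19 for Chga and 28.1 to 32.9 for Mt1.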

Other observations

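Goblet cell genes had the lowest estimates of the marker lists in Lgr5+ low-mitotic cells. All 7 tested were estimated lower in Fpr2VKO (median log2 fold change -1.43), none was called, and 1, Spink4, lay wholly lower, beside 6.09% of all genes. Spink4, a secreted protease inhibitor gene of goblet cells, was at 4315, 6424 and 7169 scaled CPM in Fpr2f/f libraries 1 to 3 and at 2961, 1574 and 2652 in Fpr2VKO libraries 1 to 3 (log2 fold change -1.32, SE 0.26, edgeR adjusted p = 0.24). Goblet-rich cells held 96.8% of its UMIs, but Spink4 is itself among the genes that define these cells. Of 12 enterocyte markers 10 were estimated higher (median 0.37), and the 5 Paneth cell markers tested that the rule did not use were all estimated lower (median -0.45), without a call.

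Reg3g, which fell in dividing Lgr5+ cells, was at 2582, 2437 and 3465 scaled CPM in the Fpr2f/f and at 2314, 749 and 1378 in the Fpr2VKO low-mitotic cells. The groups did not overlap there either, and the gene was not called (log2 fold change -0.93, edgeR adjusted p = 0.73). Of 15 antigen presentation genes and 19 peroxide defence genes tested none was called, with median log2 fold changes of -0.04 and 0.01. Receptors and ligands of the Wnt pathway, 14 tested, also gave no call (median -0.03).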
